A study of Mus musculus with 12 samples.

Results

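Collagens are the triple-helical proteins of the extracellular matrix. The 10 collagen genes described here are Col1a1, Col1a2, Col3a1, Col5a1, Col5a2 and Col5a3, which encode chains of the fibrillar types I, III and V, and Col4a1, Col18a1, Col6a1 and Col14a1, which encode chains of basement membrane or other collagens. Every peak whose annotation held one of these symbols was taken, which gave 25 of the 37118 peaks: 6 in the fibrillar genes and 19 in the other genes. The livers came from wild-type male C57BL/6 mice, 6 to 8 weeks old by the housing description, that received CdCl2 by gavage at 0 (control) or 20 mg/kg/day (cadmium) for 90 days. The antibody used to pull down RNA fragments binds N6-methyladenosine (m6A), an adenosine carrying a methyl group, and the 6 count columns were read as 3 control and 3 cadmium immunoprecipitated (IP) samples. A peak's count can differ because the amount of the gene's RNA differs or because its methylated share differs, and in whole liver fewer cells of a type and less RNA per cell cannot be told apart. Whether each sample is a separate animal is not stated, so p-values measure the spread between these samples.

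In fibrosis, fibrillar collagens are secreted mainly by activated hepatic stellate cells and portal fibroblasts, under control of the cytokine TGF-beta. Chains are hydroxylated and folded in the endoplasmic reticulum with the chaperone HSP47, trimmed by proteases outside the cell, and cross-linked by lysyl oxidases. Type IV collagen forms the network of basement membranes, and type XVIII collagen, which carries heparan sulfate and yields the fragment endostatin, is in liver also made by hepatocytes.

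Counts were higher in cadmium than in control samples across the collagens. All 25 peaks passed the filter on low counts, all 25 had log2 changes above 0, and 11 were called higher and 0 lower by edgeR's quasi-likelihood test at an adjusted p below 0.05. Over all 37088 peaks tested, 6.27% were called and 3.55% were called higher. The median log2 change was 0.61 over the 25 peaks and -0.0031 over all peaks. With the counts of each gene's peaks summed, 7 of the 10 genes were called higher and 0 lower, where 10.2% of 13050 genes were called and 5.98% were called higher. The groups did not overlap, with every cadmium sample above every control sample, at 17 of 25 peaks and in 9 of 10 genes. Over all features such a separation was seen at 14.4% of peaks and in 16.9% of genes. Of the 25 peaks, 8 were marked as up and 0 as down in the authors' deposited table. Over all peaks marked as up there, the smallest log2 change was 1.001 and the largest of the authors' adjusted p-values 0.232. Of the 25 peaks, 13 had an authors' adjusted p below 0.05. The share of all peaks marked as up was not counted here, so these counts are not read as a result about the collagens.

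The libraries held 40174736 to 52338612 counts in peaks. The largest 2 peaks took 4.95% to 19.7% of a library's counts, with the lowest share in control replicate 2 and the highest in cadmium replicate 3. The counts behind a single collagen peak ranged from 28 in a sample (Col5a2) to 17980 (Col18a1).

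**Figure D1:**
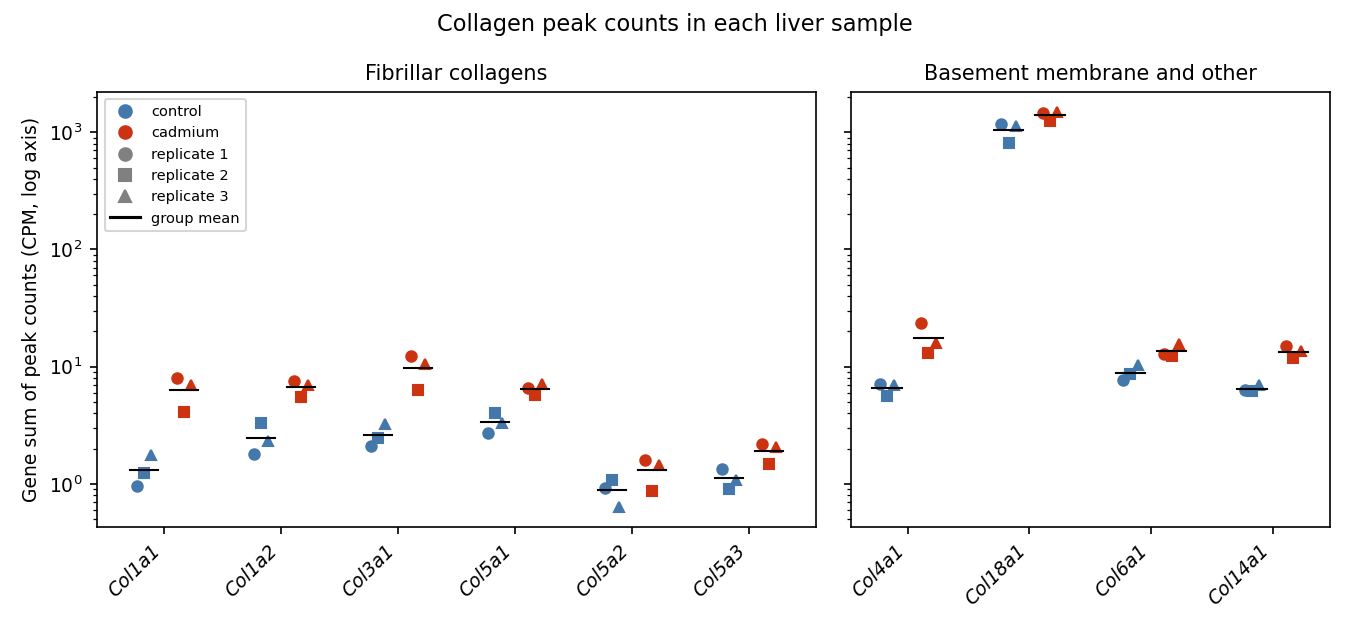
Counts of each collagen gene in every sample, in CPM on a log axis, summed over the gene's peaks, with fibrillar genes on the left and the other genes on the right. Blue marks are the 3 control and red marks the 3 cadmium samples, the shape gives the replicate and the bar the group mean. The groups overlap for Col5a2 alone, and in all 10 genes the lowest cadmium sample is replicate 2.

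Type I collagen, the main protein of fibrous scar, is built from the chains of Col1a1 and Col1a2, and Col1a1 had the largest fold change of the 10 genes. The single Col1a1 peak (mm10, chr11:94951281-94951624) stood at 0.937, 1.25 and 1.77 CPM (counts scaled to library depth) in control replicates 1, 2 and 3 and at 7.83, 4.14 and 7.05 CPM in cadmium replicates 1, 2 and 3. Every cadmium sample was above every control sample, and cadmium replicate 2 was the lowest of its group. The control mean was 1.32 ± 0.419 CPM and the cadmium mean 6.34 ± 1.94 CPM (SD, n = 3). Col1a1 thus rose 4.80-fold, a log2 change of 2.26 (SE 0.30, edgeR adjusted p = 0.00268). The Col1a2 peak (chr6:4540476-4540908) was at 1.75, 3.35 and 2.33 CPM in control and 7.47, 5.64 and 7.14 CPM in cadmium samples. Control replicate 2 was here the highest control, yet below all cadmium samples. The change was 2.72-fold (log2 change 1.44, SE 0.24, adjusted p = 0.00838).

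Col3a1, the chain of type III collagen that mixes with type I in fibrils of soft organs, rose 3.76-fold at its single peak (chr1:45348625-45348917). Its levels were 2.04, 2.49 and 3.24 CPM in control and 12.1, 6.48 and 10.6 CPM in cadmium samples, with no overlap. The log2 change was 1.91 (SE 0.26, adjusted p = 0.00314). Col1a1, Col1a2 and Col3a1 remained called in each of the 6 fits that left out a sample, with adjusted p in the gene-sum fits up to 0.0187, 0.0404 and 0.0221.

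The sequences before the starts of Col1a2 and Col3a1 are shown because the IP counts of both genes rose. RefSeq windows on build GRCm38.p6 run from 250 bases before to 50 bases after a transcription start, and 7 of the 10 genes had one (8 windows, since Col18a1 has a pair). Col1a1, Col5a2 and Col14a1 had none. Capitals mark CCAAT, a box known for binding NF-Y, or its reverse complement ATTGG, and TATAAA or its reverse complement TTTATA. The Col1a2 window is chr6:4505368-4505667 on the plus strand and the Col3a1 window chr1:45311288-45311587 on the plus strand.
Col1a2: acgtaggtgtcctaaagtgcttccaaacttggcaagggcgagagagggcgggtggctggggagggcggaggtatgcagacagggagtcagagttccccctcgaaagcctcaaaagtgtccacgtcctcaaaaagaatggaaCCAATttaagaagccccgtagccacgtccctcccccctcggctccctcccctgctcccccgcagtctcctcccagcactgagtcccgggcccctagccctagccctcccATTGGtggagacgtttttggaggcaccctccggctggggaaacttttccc
Col3a1: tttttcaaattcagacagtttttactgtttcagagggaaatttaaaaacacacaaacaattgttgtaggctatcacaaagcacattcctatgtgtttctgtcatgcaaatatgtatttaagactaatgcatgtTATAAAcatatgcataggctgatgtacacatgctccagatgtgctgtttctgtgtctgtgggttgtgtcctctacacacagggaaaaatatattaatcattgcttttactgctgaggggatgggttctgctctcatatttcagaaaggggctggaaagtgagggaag
The Col1a2 window held CCAAT 2 times, beginning at position -109 from the start and, on the reverse strand, at position 1. The Col3a1 window held no CCAAT and had TATAAA once, beginning at position -117. Of the other windows, those of Col4a1, Col5a3 and the upstream start of Col18a1 held 1 CCAAT each. CCAAT was found on either strand in 37.4% and TATAAA in 13.6% of all 32851 promoter windows, so these matches only describe the letters of the windows.

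Type V collagen is a minor fibrillar type that sits inside type I fibrils and limits their width, and its 3 chains had smaller log2 changes than Col1a1, Col1a2 and Col3a1, a difference that was not tested. Col5a1 (chr2:28036940-28037439) was at 2.65, 4.04 and 3.31 CPM in control and 6.50, 5.79 and 7.23 CPM in cadmium samples, without overlap. It rose 1.95-fold (log2 change 0.96, SE 0.20, adjusted p = 0.0198), and the call was lost without cadmium replicate 3 (adjusted p = 0.101) or control replicate 3 (0.0673). Col5a3 (chr9:20770101-20770220) was at 1.30, 0.916 and 1.09 CPM in control and 2.15, 1.50 and 2.09 CPM in cadmium samples. Its samples did not overlap either, but it was not called (log2 change 0.79, SE 0.27, adjusted p = 0.119). Col5a2 (chr1:45375867-45376108) was at 0.896, 1.10 and 0.634 CPM in control and 1.58, 0.886 and 1.46 CPM in cadmium samples. The groups overlapped through cadmium replicate 2, and the change was not called (log2 change 0.57, SE 0.34, adjusted p = 0.362). Col5a2 had the fewest counts of the set, 310 over the 6 samples.

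**Figure D2:**
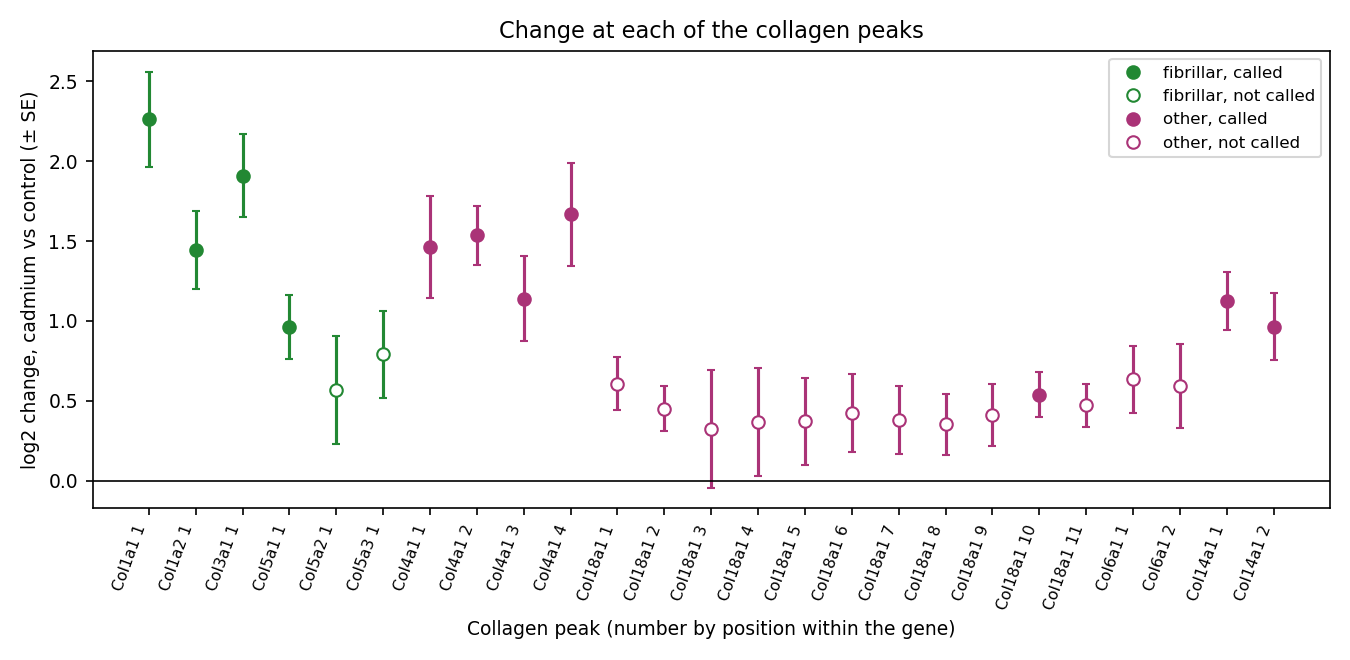
Log2 change in cadmium against control samples (± SE) at each of the 25 collagen peaks, numbered by rising coordinate within each gene. Filled marks have an edgeR adjusted p below 0.05: 4 of 6 fibrillar peaks (green) and 7 of 19 other peaks (purple) are filled, and all marks lie above 0.

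Col4a1, a chain of the type IV collagen of basement membranes, rose at each of its 4 peaks on chromosome 8. Their log2 changes were 1.46 (SE 0.32), 1.54 (SE 0.18), 1.14 (SE 0.27) and 1.67 (SE 0.32), with adjusted p of 0.0246, 0.00183, 0.032 and 0.0154. The peak with the highest level (chr8:11218660-11218871) was at 2.61, 1.53 and 2.61 CPM in control and 6.53, 3.87 and 4.48 CPM in cadmium samples. The peak with the smallest p-value (chr8:11199676-11199836) was at 1.81, 1.59 and 1.72 CPM in control and 5.37, 4.83 and 4.70 CPM in cadmium samples. At all 4 peaks the groups did not overlap. Peaks 1 and 2, numbered by rising coordinate, also carry the symbol of the lncRNA gene Gm15418, whose span overlaps the 3' end of Col4a1, and their reads cannot be assigned to either gene. Peaks 3 and 4, with Col4a1 as their single symbol, gave a summed log2 change of 1.34 (adjusted p = 0.0195), beside 1.41 (SE 0.22, adjusted p = 0.00635) for all 4. Calls at peaks 1, 3 and 4 were lost in 2 to 4 of the 6 fits without a sample, and that of peak 2 in 0.

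Col18a1, a basement membrane collagen, had the most peaks, 11 on chromosome 10, and the smallest change. Its gene sum was 1184, 817 and 1121 CPM in control and 1457, 1253 and 1496 CPM in cadmium samples. The groups did not overlap, but the change of 1.35-fold was not called (log2 change 0.43, SE 0.16, adjusted p = 0.121, or 0.0507 with the replicate as a block). It passed at 0.0482 when libraries were scaled by their totals alone. The 11 peaks had log2 changes of 0.32 to 0.61. Peak 10 (chr10:77095954-77096510) was called, at 201, 176 and 207 CPM in control and 265, 270 and 313 CPM in cadmium samples (log2 change 0.54, SE 0.14, adjusted p = 0.0473), and that call was lost in each of the 6 fits without a sample (0.0621 to 0.231).

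The leading Col18a1 peak (chr10:77113010-77113651) was at 228, 225 and 259 CPM in control and 306, 325 and 356 CPM in cadmium samples. Its log2 change was 0.47 (SE 0.14, adjusted p = 0.0665, or 0.0406 with the replicate as a block). RefSeq gives Col18a1 an upstream and an internal start, 52.8 kb apart on the minus strand. The leading peak begins 54 bases downstream of the internal start, and all 11 peaks lie downstream of that start. The window of the internal start (GRCm38.p6, chr10:77113656-77113955, minus strand) is shown for its place next to the leading peak, and holds neither of the motifs above.
Col18a1: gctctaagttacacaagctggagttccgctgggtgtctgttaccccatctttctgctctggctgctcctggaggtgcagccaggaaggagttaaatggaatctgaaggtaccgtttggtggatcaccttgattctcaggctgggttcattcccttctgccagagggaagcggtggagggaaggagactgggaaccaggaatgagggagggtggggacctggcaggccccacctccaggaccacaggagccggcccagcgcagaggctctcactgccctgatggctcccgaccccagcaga
Peaks of the fibrillar genes lay near an end of the gene. All 6 were centred within 2.5 kb of one, and for Col1a2, Col3a1, Col5a1 and Col5a3, whose strand the promoter table gives, this was the 3' end, at 0.851, 0.935, 2.32 and 0.110 kb. The limit of 2.5 kb lies just above the farthest of the 6, Col5a1, so that all fall within it is no test of their closeness. Of all 25 collagen peaks 13 lay within 2.5 kb of a gene end, and so did 46.1% of 30600 peaks with a single symbol that matched a RefSeq gene. Col18a1 peaks 1 and 2, near its 3' end, also carry Slc19a1, a folate transporter gene, and without them the summed log2 change of Col18a1 was 0.42 (adjusted p = 0.146).

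The Col18a1 peaks also differed among themselves by batch. Chosen after their values were seen, peaks 3 to 9, which lie between 24.8 and 49.7 kb from the internal start, held 47.4%, 33.4% and 41.2% of the gene's CPM in control replicates 1, 2 and 3 and 44.1%, 34.6% and 39.1% in cadmium replicates 1, 2 and 3. Replicate 2 was thus lowest in both groups. In control replicate 2 these peaks were at 31.0% to 61.9% of their level in control replicate 1, and peaks 1, 2, 10 and 11 at 83.4% to 98.9%. The part of batch in the Col18a1 results was not tested beyond the block.

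**Figure D3:**
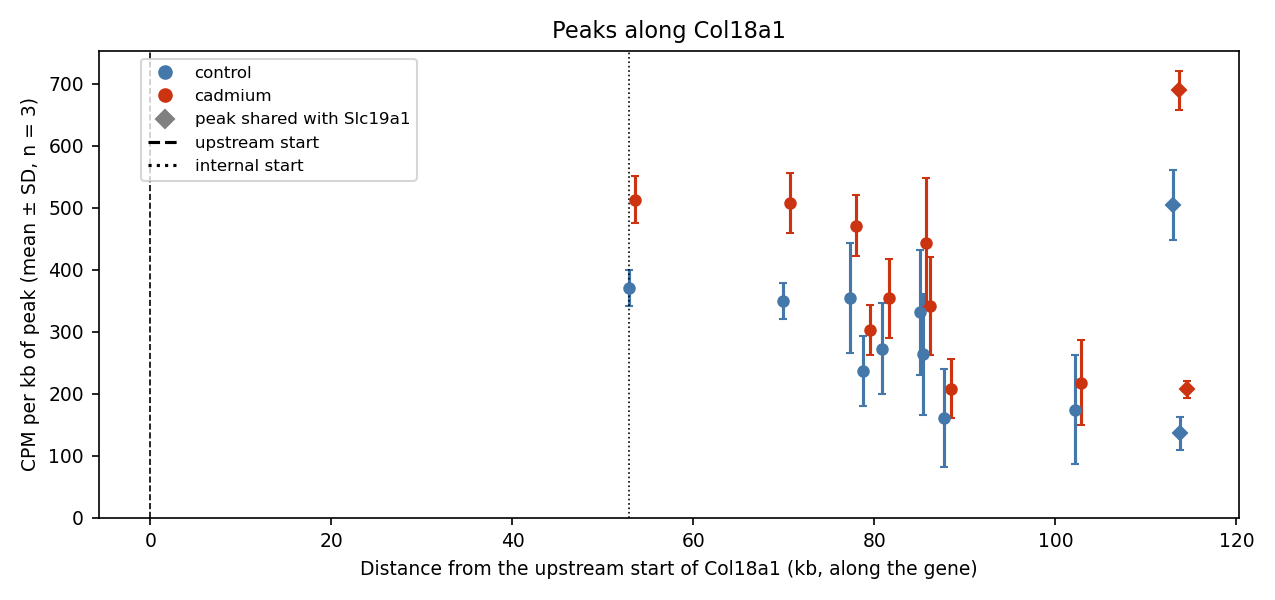
Mean CPM per kb of peak (± SD, n = 3 samples) at the 11 Col18a1 peaks, placed by their distance along the gene from its upstream start in kb, with control in blue and cadmium in red (set slightly apart). Diamonds are peaks shared with Slc19a1, and the dotted line is the internal start, which all 11 peaks follow. The cadmium mean is above the control mean at each peak.

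Col6a1 encodes a chain of type VI collagen, which forms beaded filaments around cells. Its peak of higher level (chr10:76709475-76709974) was at 5.30, 7.51 and 8.72 CPM in control and 9.67, 10.3 and 13.4 CPM in cadmium samples, without overlap. Neither of its peaks was called by itself (log2 changes 0.63 and 0.59, SE 0.21 and 0.26, adjusted p = 0.105 and 0.223, and 0.0339 and 0.140 with the replicate as a block). Their sum was called, at a log2 change of 0.61 (SE 0.16, adjusted p = 0.0467), and this was lost in each of the 6 fits without a sample (0.0501 to 0.205) and with scaling by library totals alone (0.0649). Col14a1, whose product attaches to the surface of fibrils, rose at a peak near each end of its gene on chromosome 15. The leading peak (chr15:55307764-55308063) was at 3.36, 4.18 and 4.85 CPM in control and 9.50, 7.98 and 9.55 CPM in cadmium samples (log2 change 1.13, SE 0.18, adjusted p = 0.0076). The other peak (chr15:55520538-55520790) had a log2 change of 0.97 (SE 0.21, adjusted p = 0.0237), with no overlap of groups at either. The call of the second peak was lost in 4 of the 6 fits without a sample (0.0640 to 0.0892). Their sum remained called in each of the 6 fits without a sample, with adjusted p up to 0.0271.

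No collagen peak was called as departing from the other peaks with the same annotation. Peaks 1 and 2 of Col4a1 and of Col18a1 carry a further symbol, so they were not compared with the rest of their gene. Of the 19 peaks in Col4a1, Col18a1, Col6a1 and Col14a1, edgeR's diffSpliceDGE called 0 as changing otherwise than their annotation group, and 0 had an unadjusted p below 0.05 (smallest 0.367). The test called 0.0296% of all 30444 peaks, and 0.966% of them had an unadjusted p below 0.05. That share is itself far below 0.05, so the test called little anywhere, and its 0 does not show that the peaks changed alike.

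Fibrillar and other collagens were set side by side by gene. Among the 6 fibrillar genes 4 were called higher, with a median log2 change of 1.19 (0.55 to 2.25), and among the 4 others 3 were called higher, with a median of 0.83 (0.43 to 1.41). Of the latter, the basement membrane genes were Col4a1 (1.41) and Col18a1 (0.43). In each sample, the mean log2 CPM of the fibrillar genes minus that of the others was -4.05, -3.59 and -3.96 in control replicates 1, 2 and 3 and -3.32, -3.62 and -3.34 in cadmium replicates 1, 2 and 3. The samples overlapped through replicate 2. The group means were -3.87 ± 0.25 and -3.43 ± 0.17 (SD, n = 3), so the fibrillar genes rose by 0.44 more on the log2 scale, given as a description without a test. Within batches 1 and 3 the difference was 0.74 and 0.62, and within batch 2 it was -0.04, so it did not hold in that batch.

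The labels give each replicate number a batch, which allowed cadmium and control to be compared within batches. Cadmium was higher than control for 10 of 10 genes in batches 1 and 3 and for 9 of 10 in batch 2, where Col5a2 had a log2 ratio of -0.32. The median log2 ratio over the 10 genes was 1.25 in batch 1, 0.72 in batch 2 and 1.14 in batch 3. For Col1a1 the ratios were 3.04, 1.71 and 1.97, for Col3a1 2.54, 1.37 and 1.69, and for Col4a1 1.73, 1.21 and 1.20. Col18a1 had its largest ratio in batch 2, 0.62, beside 0.30 and 0.42 in batches 1 and 3.

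**Figure D4:**
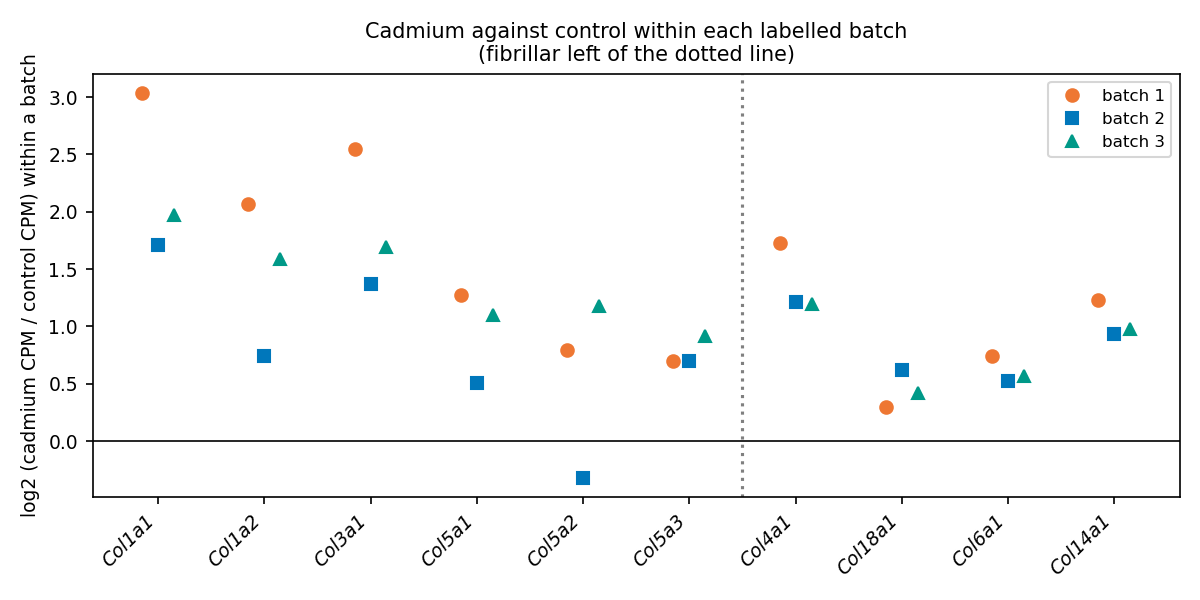
Log2 ratio of cadmium to control CPM of each collagen gene within each labelled batch, with 1 cadmium and 1 control sample per ratio. Of the 30 ratios, only that of Col5a2 in batch 2 lies below 0, and batch 1 holds the largest ratios for Col1a1, Col1a2 and Col3a1.

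Compared per kb of peak, Col18a1 stood apart in level, at 302 ± 56.8 CPM per kb in control and 407 ± 37.8 CPM per kb in cadmium samples (SD, n = 3). The other 9 genes lay between 3.66 (Col5a2) and 12.9 (Col6a1) CPM per kb in control samples. In rising order these were Col5a2, Col1a1, Col1a2, Col5a1, Col3a1, Col5a3, Col4a1, Col14a1 and Col6a1, and neighbours overlapped between samples except Col4a1 and Col14a1. In cadmium samples Col5a2 was again lowest (5.41 CPM per kb) and below the rest, and Col3a1 came next to Col18a1 (33.2 ± 10.3 CPM per kb, beside 8.91 ± 2.00 in control). From Col5a1 to Col3a1 all neighbours overlapped. Col1a1 went from 3.86 ± 1.19 to 18.4 ± 5.85 CPM per kb.

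Other collagens split by gene. Of 5 further collagen genes with peaks, Col6a2 and Col6a3, the partner chains of Col6a1, rose, at log2 changes of 0.98 (SE 0.19, adjusted p = 0.014) and 1.09 (SE 0.17, adjusted p = 0.00698). Col13a1 (-0.52), Col27a1 (-0.56) and Col2a1 (-0.45) were not called (adjusted p = 0.200, 0.262 and 0.492). Col6a2 was not called without cadmium replicate 3 (0.0659).

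Genes that process collagen were called higher at 4 of 19 measured members and lower at 0, where 5.98% of all gene sums were called higher and 4.18% lower, with a median log2 change of 0.19. The lysyl oxidase family genes Loxl4 (log2 change 1.86, SE 0.36, adjusted p = 0.0139) and Loxl1 (1.29, SE 0.26, adjusted p = 0.0164), which encode cross-linking enzymes, rose most. Pcolce, an enhancer of procollagen trimming (0.98, SE 0.26, adjusted p = 0.0415), and Serpinh1, which encodes HSP47 (0.82, SE 0.18, adjusted p = 0.0228), also rose. The prolyl hydroxylase genes P4ha1 (-0.38) and P4hb (-0.07) were not called. The count fell to 1 when cadmium 3 was left out, and to 2 when cadmium 1, control 1 or control 2 was.

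Matrix proteins found beside collagen fibrils and in basement membranes were called higher at 6 of 14 measured members and lower at 0 (median log2 change 0.52), again beside 5.98% and 4.18% of all gene sums. They were the thrombospondin gene Thbs1 (1.92, SE 0.40, adjusted p = 0.0185), the collagen-binding Sparc (1.22, SE 0.13, adjusted p = 0.0013), the basement membrane genes Nid1 (1.01, SE 0.21, adjusted p = 0.0185) and Hspg2 (0.54, SE 0.12, adjusted p = 0.0228), and the small proteoglycans Bgn (0.73, SE 0.13, adjusted p = 0.00996) and Lum (0.57, SE 0.14, adjusted p = 0.0335). The fibronectin gene Fn1 (-0.02) was not called. Leaving out cadmium replicate 3 gave 2 calls in this list, and leaving out control replicate 1 gave 3. Scaling by library totals alone gave 4. Sparc and Bgn remained called in each of the 6 fits without a sample, Thbs1 in 5, Nid1 in 4, Hspg2 in 3 and Lum in 1.

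The lists of TGF-beta signalling, collagen breakdown and collagen receptors had 1 call each, beside 10.2% of all gene sums called in either direction, and a single call is read here as a value of that gene, not as a result about its list. Of 18 measured TGF-beta signalling genes the called one was the ligand gene Tgfb1, higher at a log2 change of 0.50 (SE 0.12, adjusted p = 0.0292), and the list's median was 0.10. That call was lost in 4 of the 6 fits without a sample (0.0578 to 0.142 in those, which left out cadmium 2, cadmium 3, control 1 or control 3) and when libraries were scaled by totals alone (0.0877). The receptor gene Tgfbr2 (log2 change 0.39) was not called (adjusted p = 0.106, or 0.0468 with the replicate as a block). Of 8 measured genes of collagen breakdown the membrane-type protease gene Mmp15 was lower (-0.50, SE 0.12, adjusted p = 0.0312), a call lost when cadmium 1, cadmium 3, control 1 or control 3 was left out (0.0775 to 0.143) and with totals alone (0.157). Timp2, an inhibitor of such proteases, had a log2 change of 0.72 and was called, as higher, with the replicate as a block (adjusted p = 0.0494, beside 0.0812 without it). Without control replicate 3 the 1 call in the list was also a higher one. Mmp14, a collagenase at the cell surface, was not called (log2 change 0.01). Of 4 measured collagen receptor genes Itga1, a subunit of a collagen-binding integrin, was lower (-0.54, SE 0.12, adjusted p = 0.0262). This was called in 1 of the 6 fits without a sample and was -0.06 (adjusted p = 0.844) over the peaks with Itga1 as single symbol.

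**Figure D5:**
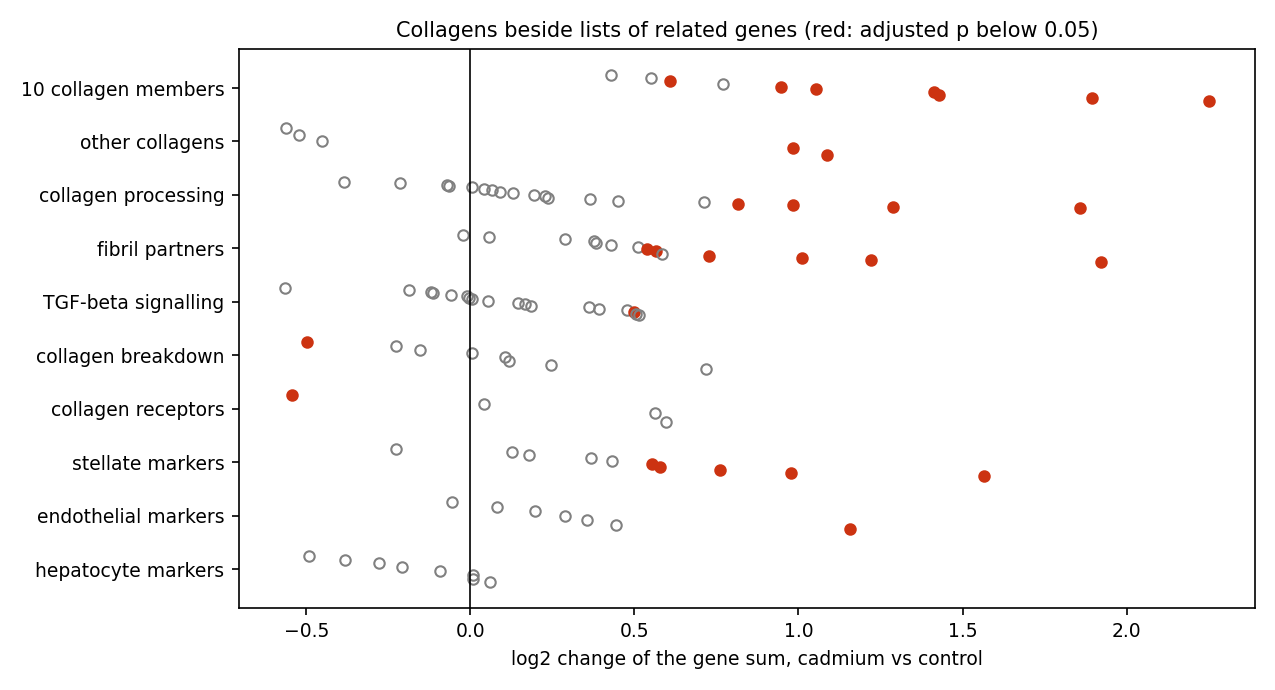
Log2 change of gene sums in cadmium against control samples for the 10 collagen genes, 6 lists of related genes and 3 lists of cell type markers, 1 mark per gene. Red marks have an edgeR adjusted p below 0.05: 7 of 10 collagens, 4 of 19 processing genes, 6 of 14 fibril partners and 5 of 10 stellate markers are red on the right.

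Markers of matrix-producing cells were measured beside the collagens. Of 10 stellate cell markers, 5 were called higher and 0 lower, beside 5.98% and 4.18% of all gene sums. Their median log2 change was 0.49, and their summed level was 283 to 364 CPM in control and 423 to 463 CPM in cadmium samples. The count was 1 without cadmium replicate 3 or control replicate 3, 2 with scaling by totals alone or without control replicate 1, and 3 without cadmium replicate 1 or 2. Over single-symbol peaks it was 4. All 5 peaks of Lrat, which was called, and all 3 of Hand2, which was not, also carry another symbol. Their reads are in the sums above and cannot be assigned to either gene. The receptor gene Pdgfrb was called without the replicate block (adjusted p = 0.0426) and not with it (0.0633). Of 7 myofibroblast markers, 2 were measured (Tagln, and Postn, which is also in the fibril partner list) and 0 called, while 1 was called higher with the replicate as a block. That was Tagln, at a log2 change of 0.79 (adjusted p = 0.0399, beside 0.229 without the block), whose single peak also carries another symbol. Acta2, Myh11, Timp1, Lox and Cnn1 had no peak under these symbols and so were not measured. The sum of Tagln and Postn was 3.31 to 5.58 CPM in control and 4.78 to 9.88 CPM in cadmium samples. Of 8 portal fibroblast and mesothelial markers 2 were measured and 0 called, at 1.40 to 2.45 and 2.29 to 2.90 CPM. Of 7 measured endothelial markers 1 was higher and 0 lower, at 277 to 369 and 273 to 390 CPM, and the count was 0 when any one cadmium sample was left out. The 4 measured cholangiocyte markers all had log2 changes above 0, with a median of 0.98, larger than that of the stellate markers, and sums of 96.1 to 121 CPM in control and 93.1 to 316 CPM in cadmium samples. Of these 1 was called higher (Pkhd1), 2 with scaling by totals alone, 4 without cadmium replicate 2, and 0 in the other 5 fits without a sample. Sox9 was at 6.13, 6.35 and 8.55 CPM in control and 27.8, 6.87 and 18.2 CPM in cadmium samples, and Spp1 at 81.7, 106 and 100.3 CPM in control and 267, 75.6 and 225 CPM in cadmium samples. Both were thus lowest of the cadmium group in replicate 2, as were all 10 collagen genes. The hepatocyte genes Alb, Apoa1, Ttr, Cps1 and Ass1 were also lowest there, while Hnf4a, Serpina1c and Cyp2e1 were not. The share of all genes lowest in that sample was not counted. Of 5 Kupffer and macrophage markers 1 was lower (134 to 164 and 141 to 179 CPM), and 1 was higher as well without cadmium replicate 1 or over single-symbol peaks, while 0 of 2 leukocyte (2.24 to 2.92 and 3.28 to 4.67 CPM) and 0 of 3 erythroid markers (92.7 to 159 and 79.1 to 279 CPM) were called. The 8 hepatocyte markers were all measured and 0 were called, with sums of 21362 to 26267 CPM in control and 20483 to 23954 CPM in cadmium samples. The part of cell makeup in the collagen results was not tested.

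The genes whose profile over the 6 samples was nearest to the mean of the fibrillar collagens, among 12800 gene sums, were Sox4, Ypel2, 9530026P05Rik, Mvd and Ocstamp. Their root-mean-square differences from it were 0.11, 0.11, 0.13, 0.14 and 0.15 in centred log2 CPM. All 5 share the libraries' depth and the batch numbers with the collagens, as every gene here does. Their log2 changes of 1.13 to 1.47 follow from picking them by likeness to the fibrillar profile.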

How the data were processed

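The 12 libraries of the labels are 6 IP and 6 input libraries of mouse liver RNA, of which the IP samples were analysed here. The deposited values are whole-number counts per peak, whose library totals differ, so they were taken as raw. Per the submitters' processing notes the build was mm10 and the tools were STAR 2.7.1a, MACS2 2.1.1, cutadapt 1.1.8, DESeq2 4.1.0 and SAMtools 1.3.1. What each did, how reads were counted and whether strand was used are not given in the sources used here. Column headers are library numbers shared by the IP and input library of a sample, and reading them as IP is an assumption. Input counts were not used here, and coordinates are as deposited. The authors' deposited log2 fold changes, p-values and adjusted p-values were used only where named.

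The test was that of edgeR 4.0.16 under R 4.3.3 (TMM scaling, filterByExpr with minimum count 10 and minimum total 15, quasi-likelihood F test, Benjamini-Hochberg over all peaks or all gene sums, called below 0.05). A gene sum adds all peaks naming a symbol, and a peak with several symbols counts for each. SE was derived from the F value (size of the log2 change over its root), so it is not independent of p. Values in CPM are scaled by TMM. The alternatives were DESeq2 1.42.0, scaling by totals or upper quartile, other filters, a replicate block, single-symbol peaks and leaving out each sample. The scripts were tested on simulated counts. The replicate numbers pair samples because the labels call them batches, and correlations of the samples' deviations from their group mean were 0.146, 0.214 and 0.174 within batches, and -0.173 to 0.0163 across them. No replicate pair agreed within sampling noise (chi-square per degree of freedom 31.9 to 161). Named genes are the 10 collagens, up to 6 called genes of each list (otherwise the largest changes), and the 5 nearest profiles with mean CPM of at least 1. Fn1, P4ha1, P4hb, Mmp14, Timp2, Tgfbr2 and the single cell type markers were named after their values were seen. The members and lists were chosen with earlier results of these data known.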

Additional observations from a re-analysis of the deposited data

How the results depend on the processing

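The count of called collagen genes was 7 under the planned scalings, filters, DESeq2, the replicate block and single-symbol peaks, and 5 to 6 when a sample was left out. With library totals alone the 7 were not the same genes. Col18a1 (edgeR adjusted p = 0.0482) was called there and Col6a1 (0.0649) was not. The collagen peaks called numbered 9 to 14 under those settings (14 with the replicate block) and 5 to 10 without a sample: 5 without cadmium replicate 3, 6 without control replicate 3 and 7 without cadmium replicate 1. Peaks departing from others with the same annotation stayed at 0. DESeq2 was not run for that test or for the class difference. For single-symbol peaks the peak fit was the main fit, with the 4 shared collagen peaks left out. The 9 called peaks and 0 departing peaks of that setting are therefore no separate check. The class difference is taken within each sample, where a scaling factor cancels. Its 0.44 under every scaling and filter was thus fixed in advance and is no check. It was 0.46 over single-symbol peaks and 0.35 to 0.58 without a sample. No block value exists for the class difference, which comes from no test. With library totals alone, collagen breakdown, collagen receptors and TGF-beta signalling had 0 calls and fibril partners had 4. Breakdown had 2 calls with DESeq2 and 2 with the replicate block (1 higher and 1 lower in both), TGF-beta signalling had 2 with the block, and receptors had 0 over single-symbol peaks. Without a sample the ranges were 0 to 1 for breakdown, receptors and TGF-beta signalling, 1 to 4 for processing, 2 to 6 for fibril partners and 1 to 2 for other collagens. Of all 25 peaks, Col18a1 peak 3 alone changed sign, to a log2 change of -0.0405 without control replicate 2, with 0.65 as its highest value without a sample. The cause of these shifts was not tested. With the block, Col6a1 peak 1 and Col18a1 peaks 1 and 11 became called, and no collagen gene's call changed. Among the gene lists, the block changed the calls of Timp2, Tgfbr2, Tagln and Pdgfrb and no other. Col5a2 had the fewest counts of the collagens, 310, and an SE of 0.34 at its peak. Col18a1 peak 3, with 11413 counts, had an SE of 0.37, and the part of low counts in the SE was not tested.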
